A study of Mus musculus with 4 samples.

Results

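Gene expression with and without 4-hydroxytamoxifen (4OHT) was compared in mouse intestinal organoids at day 6 of culture. The 2 arrays of that day, out of 4 in the series, were set against each other: the array of organoids given 4OHT for 24 h and collected at day 6, and the array of untreated organoids of the same day. All organoids in this comparison were labelled Apc fl/fl, that is, with both Apc alleles flanked by sites for Cre recombinase, and the 4OHT array is described in the labels as Apc-deficient. Not given in the sources used here are the Cre driver, the part of Apc removed, and whether the arrays came from separate cultures. Organoids lacking the floxed allele but given 4OHT are not among the 4 arrays, so effects of 4OHT and of Cre cannot be told apart from those of Apc recombination. Organoids were grown in Matrigel, and 100 ng of total RNA was labelled by in vitro transcription from the 3' end. Each group held 1 array, so no test, error or p-value is given, a difference has no replicate check, and precision is limited by the number of arrays.

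Apc is the scaffold on which beta-catenin is phosphorylated and then destroyed. Without it beta-catenin accumulates, enters the nucleus with TCF and LEF factors, and keeps Wnt target genes on in the absence of a ligand. In the small intestine that program belongs to the crypt, where stem cells divide and Paneth cells mature, whereas absorptive enterocytes differentiate along the villus as Wnt signalling declines. In bulk RNA, fewer cells of a type and less RNA per cell cannot be told apart.

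Of 45101 probe sets, 34945 read exactly 1 gene and were not control probe sets. They covered 18193 genes, each represented by its brightest probe set, and 13192 genes passed a level filter (highest of the 4 arrays at or above an intensity of 20.9, the median of all values). Differences are 4OHT minus untreated on the log2(intensity + 16) scale, on which 1 is a 2-fold difference and which understates differences of dim genes. "Higher" and "lower" refer to the 4OHT array throughout. The median intensity was 19.3 on the untreated and 19.5 on the 4OHT array, and the 95th percentile was 517.6 and 471.8. The median difference of all genes was 0.0012.

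Markers of epithelium were bright on both arrays. Epcam, the epithelial adhesion molecule, read 5080.0 and 4549 on the untreated and 4OHT arrays, Cdh1 (E-cadherin) 2303 and 2392, and Vil1 (villin, a microvillus protein) 1865 and 1536. Defining markers of other cells lay near the floor: Col3a1 of fibroblasts read 5.91 and 6.22, the leukocyte antigen gene Ptprc 6.23 and 6.43, and the endothelial gene Cdh5 8.37 and 8.36. Summed intensities moved little for the 14 fibroblast and muscle markers (190.6 and 196.3) and the 8 endothelial ones (116.0 and 134.7). The 16 immune markers summed to 712.2 and 2046, of which Lyz2, a lysozyme gene whose sequence is close to that of the Paneth cell gene Lyz1, made up 497.1 and 1821. Among 15 measured markers of intestinal epithelium the median difference was -0.34, with Krt20, a keratin of mature surface cells, at 1451 and 596.2.

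Control probe sets differed between the arrays. All 18 hybridization controls, labelled bacterial and phage sequences added just before hybridization, were brighter on the 4OHT array, by 0.83 on average (range 0.22 to 1.05, log2 intensity with nothing added). All 24 poly-A controls, RNA spiked in before labelling, were brighter there too, by 1.38 on average (1.19 to 1.75). Set against the hybridization controls, every gene would be lower by a further 0.83, and only 13 genes would be at least 2-fold higher and 3974 lower, so each direction given here is relative to the median gene of the arrays as deposited. The signal of Actb also dropped more steeply toward the 5' end on the 4OHT array: the 3' probe set exceeded the 5' one by 1.72 on the untreated and by 2.34 on the 4OHT array. For Gapdh these values were 0.86 and 1.42. The part of these controls in the gene differences below was not tested.

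**Figure D1:**
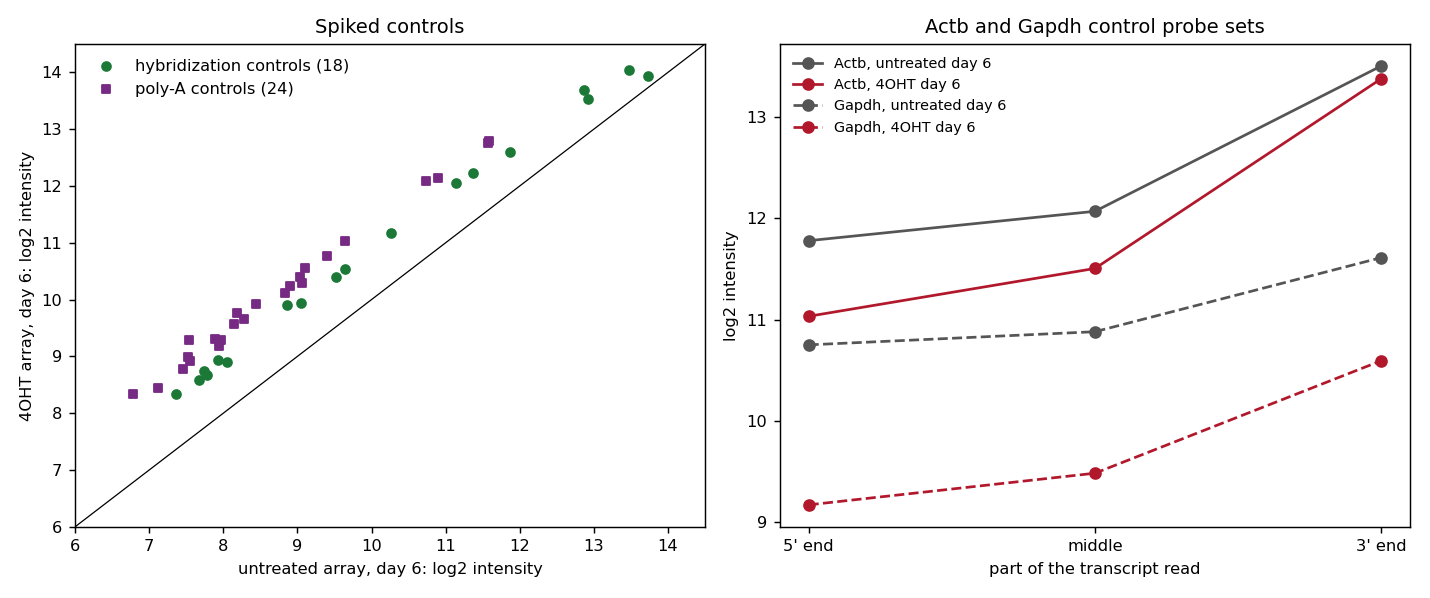
Left, log2 intensity of the 18 hybridization and 24 poly-A control probe sets on the untreated (x axis) and 4OHT (y axis) arrays of day 6, with the line of equality; every point lies above the line. Right, log2 intensity of the 5', middle and 3' control probe sets of Actb and Gapdh on both arrays; the gap between the arrays is widest at the 5' end, -0.75 for Actb and -1.58 for Gapdh.

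Lower genes outnumbered higher ones. At a threshold of 2-fold, 116 genes were higher, 0.879% of those past the level filter, and 392 were lower, 2.97%. These shares are the background for every count of list members below, where "all genes" means all genes past the level filter. List members under the filter were not counted as higher or lower but stay in the number measured. At 4-fold the counts were 9 and 45. The middle 95% of genes lay between -1.07 and 0.73. The share past 2-fold differed by level: in the dimmest class (mean log2 level under 6) 0.23% were higher and 0.51% lower, and in the brightest (10 or more) 1.99% and 5.97%. Counted per probe set, 154 of 23044 were higher (0.668%) and 576 lower (2.5%). After quantile normalization of the pair 163 genes were higher and 316 lower.

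**Figure D2:**
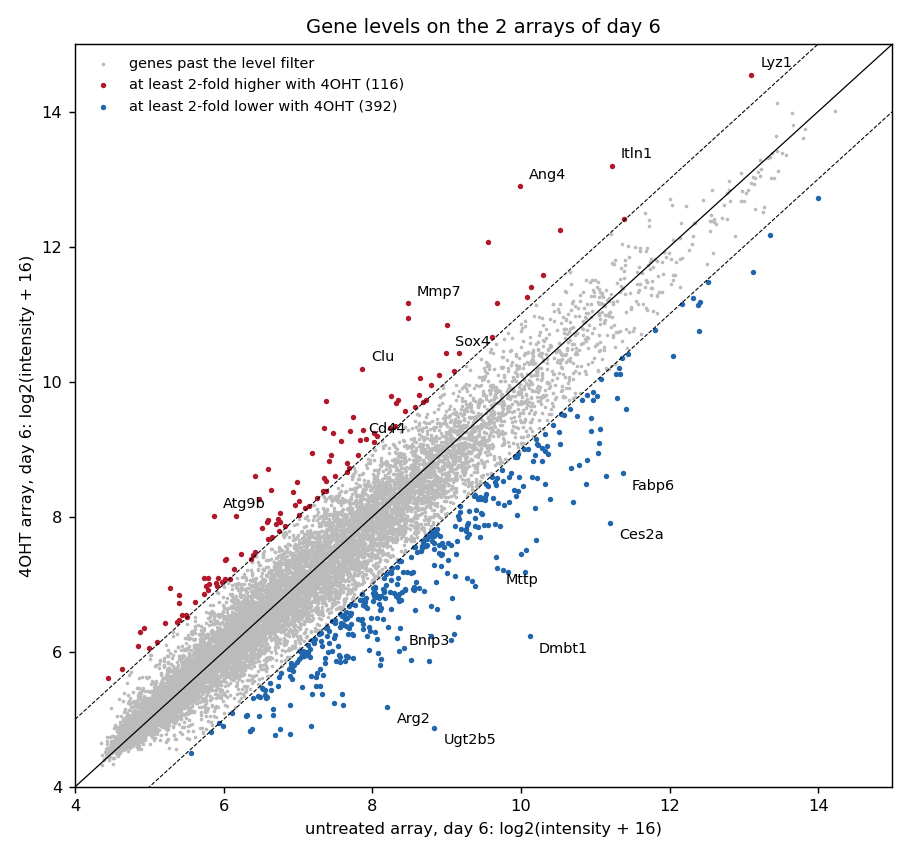
Level of each of 13192 genes on the untreated (x axis) and 4OHT (y axis) arrays of day 6, as log2(intensity + 16), with lines of equality and of 2-fold difference (dashed). The 116 genes at least 2-fold higher and the 392 at least 2-fold lower are coloured, and Ang4 and Mmp7 lie farthest above the line and Ugt2b5 and Dmbt1 farthest below it, by 2.91, 2.69, -3.96 and -3.89.

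Among the 15 genes with the largest differences upward were several secreted defence proteins. Ang4, a ribonuclease that Paneth cells secrete against bacteria, read 999.5 on the untreated and 7629 on the 4OHT array, a difference of 2.91, and its other probe set gave 2.92. Mmp7, the metalloproteinase that activates alpha-defensins in Paneth granules, went from 340.4 to 2282 between the arrays, 2.69 higher. The alpha-defensin gene Defa39 stood at 739.1 and 4272 (2.51), although its probe set may also read other members of this multigene family. Clu, the secreted chaperone clusterin and a marker of revival stem cells, was read by 4 probe sets, all higher by 1.73 to 2.94, with 217.3 and 1153 on the brightest. The other 11 of the 15 were the lipase gene Pnliprp2 (2.46) and its cofactor colipase Clps (2.12), the stress-induced chromatin protein gene Nupr1 (2.34), the lectin genes Reg4 (2.18) and Itln1 (1.97), the autophagy gene Atg9b (2.15), the tight junction gene Cldn4 (1.96), Lyz2 (1.84), Smim38 (1.84), Cplx2 (1.78) and Anxa1 (1.77). For Smim38, Cplx2 and Anxa1, another probe set of the gene differed by only 0.09, -0.01 and 0.17. Atg9b had 2 probe sets, of which 1 passed the level filter, and their mean was 1.08.

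Among the 15 genes with the largest differences downward, most encode enzymes. Ugt2b5, which glucuronidates steroids and drugs, read 440.8 on the untreated array and 13.3 on the 4OHT array, a difference of -3.96. Dmbt1, a mucosal glycoprotein that binds bacteria, read 1097 and 58.9 (-3.89). Carboxylesterase Ces2a stood at 2339 and 224.7 (-3.29). Arg2, the mitochondrial arginase, stood at 278.6 and 20.5, -3.01 on its brightest probe set and -2.29 on the other. At day 4 both untreated values lay under the level filter, 15.1 for Ugt2b5 and 14.7 for Arg2, so a large difference downward could not be read there; Dmbt1 and Ces2a differed by -1.90 and -1.94 at day 4. Fabp6, the ileal carrier of bile acids inside the cell, read 2629 and 383.1 (-2.73), and the day 4 pair differed by -1.73. Others among the 15 were the dehydrogenase and reductase genes Adh6a (-2.90), Akr1c14 (-2.88), Rdh7 (-2.64), Aldh1a7 (-2.64) and Akr1c19 (-2.55), the esterase genes Ces1f (-2.85) and Aadac (-2.56), the gluconeogenic enzyme gene Fbp1 (-2.55), the sulfotransferase gene Sult1d1 (-2.55) and Bcl2l15 (-2.87).

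**Figure D3:**
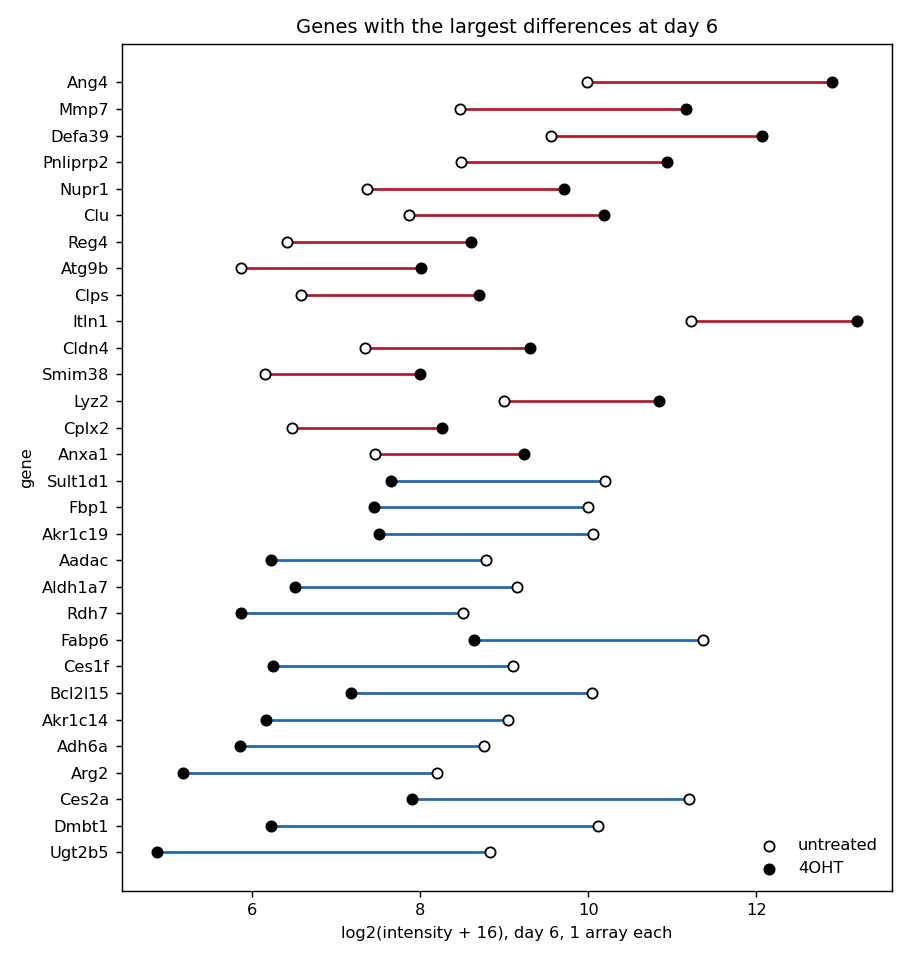
Level of the 15 genes with the largest differences upward (red lines) and the 15 with the largest downward (blue lines) on the untreated (open circles) and 4OHT (filled circles) arrays of day 6, as log2(intensity + 16), 1 array each. The longest line, that of Ugt2b5, spans 3.96.

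Apc itself was not lower on the 4OHT array. Its 4 probe sets read 99.6 and 169.6 (0.68), 107.0 and 140.2 (0.34), 17.3 and 23.9 (0.26), and 19.5 and 19.7 (0.01). Since the sources used here do not say which part was removed, these values check neither the label nor the recombination. None of the 12 genes of the destruction complex was past 2-fold. The brightest probe set of Amer1, which tethers Apc to the membrane, was higher by 0.87, but its other probe set by only 0.08. That of the kinase gene Gsk3b was higher by 0.80. The 6 probe sets of Gsk3b ranged from -0.25 to 0.80, however, and the brightest over the day 6 arrays alone gave -0.01. Ctnnb1, beta-catenin, read 3254 and 2691 (-0.27).

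Some of the genes that Wnt signalling induces stood higher. Of 32 measured, of which 27 passed the filter, 6 stood at least 2-fold higher and none lower, where 0.879% of all genes were higher and 2.97% lower, and the median of the 32 was 0.37. After Mmp7 these were Apcdd1, a membrane inhibitor of Wnt ligands (26.3 and 98.3, 1.44), the transcription factor gene Sox4 (493.2 and 1355, 1.43), the hyaluronan receptor gene Cd44 (211.4 and 546.2, 1.31), Rnf43, which sends Frizzled receptors to the lysosome (207.6 and 465.6, 1.11), and the feedback inhibitor gene Nkd1 (29.4 and 75.2, 1.01). Not all of their probe sets did so to the same degree, and the sizes depend on the probe set. Of those past the level filter, the 4 of Apcdd1 ranged from 0.34 to 1.44, the 7 of Sox4 from 0.03 to 1.48, and the 3 of Cd44 from 0.52 to 1.31. On the mean of their probe sets Apcdd1 (0.70), Sox4 (0.56) and Cd44 (0.67) were all under 2-fold. So was Sox4 on its brightest probe set over the day 6 arrays alone (0.47). Without probe sets that can bind several transcripts (_x_at and _s_at), Apcdd1 was at 0.91. Under 2-fold, Lgr5, the receptor that marks crypt base stem cells, read 596.9 and 1186 (0.97), Sp5, a transcription factor induced by beta-catenin, 48.5 and 108.4 (0.95), and Axin2, the scaffold that restrains the pathway, 332.1 and 627.8 (0.89). Other classical targets differed little: Myc read 354.9 and 419.3 (0.23), and Notum, a secreted enzyme that inactivates Wnt ligands, 41.9 and 37.3 (-0.12). The cyclin gene Ccnd1 lay between, at 0.66.

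Upstream of the complex, 1 of 32 measured Wnt ligand and receptor genes passed 2-fold, downward, where 2.97% of all genes were lower. Fzd5, the Frizzled receptor needed for Paneth cell maturation, read 856.0 and 273.0 (-1.59), with -0.49 on its other probe set, and the co-receptor gene Lrp6 was at -0.67. The list's median was 0.02. Among 13 measured TCF factors and nuclear cofactors the median was 0.05, and Tle4, a co-repressor, gave -0.67 on its brightest probe set and 0.25 on another.

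Stem cell genes of the crypt base had a median of 0.54 over 26 measured, all past the filter, and 24 of the 26 stood above 0. At least 2-fold higher were Rnf43 and Phlda1 (557.0 and 1355, 1.26). Olfm4, an abundant glycoprotein of crypt base cells, read 4167 and 6266 (0.59), the stem cell transcription factor gene Ascl2 139.1 and 217.6 (0.59), and the RNA-binding protein gene Mex3a 29.6 and 68.8 (0.89). Eph receptors and ephrins sort crypt from villus cells, and the median of 15 measured was 0.18. Only 1 was past 2-fold, downward, where 2.97% of all genes were lower. That was the ligand gene Efna1 (324.9 and 129.5, -1.23); the ligand gene Efnb2 was at -0.96 and the crypt receptor gene Ephb3 at 0.76. The Myc network and cyclins had a median of -0.19 over 24 genes. Cdkn2b, an inhibitor of the cyclin D kinases, read 470.6 and 156.1 (-1.50), and Cdk6, one of those kinases, 381.5 and 656.9 (0.76).

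Genes of fetal-like and regenerating epithelium had a median of 0.53 over 17 measured. Of these, 5 were at least 2-fold higher and none lower, where 0.879% of all genes were higher. They were Clu, Cldn4 (146.7 and 618.3), the annexin genes Anxa1 (161.3 and 587.5) and Anxa3 (154.9 and 438.5, 1.41), and the keratin gene Krt7 (767.7 and 1601, 1.04). The YAP and TEAD pathway, which drives regeneration after injury, had a median of 0.12 over 23 genes, with the matrix protein gene Thbs1 (14.4 and 65.6, 1.43) and the scaffold gene Ajuba (44.3 and 109.8, 1.06) past 2-fold. Its best known target Ccn2 read only 8.71 and 13.7. EGF receptor ligands and receptors (22 measured, none past 2-fold) had a median of 0.03, and BMP and TGF-beta signalling (27 measured) 0.05. In the latter Bmp2, a ligand of the villus side, read 260.9 and 96.99 (-1.29), and Id1, a target of BMP signalling, 240.7 and 114.0 (-0.98).

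Paneth cell products were the secretory list with the largest median, 0.67 over 15 measured. Of these 15, 6 were at least 2-fold higher and 2 lower, where 0.879% and 2.97% of all genes were. A further 10 entries of the list are not analysed here. The 2 lower were Reg3g (1652 and 281.1, -2.49) and Reg3a (654.1 and 109.6, -2.42), bactericidal lectins that enterocytes make too. The summed intensity of the list was 19606 on the untreated and 49444 on the 4OHT array, to which Lyz1, whose probe set may bind Lyz2 as well, gave 8766 and 23910 (1.45). The latter is the highest gene intensity on either array. The 2 brightest hybridization controls, at 13543 and 15753 and at 11401 and 16855, differed by 0.22 and 0.56, less than the average of 0.83, and whether such brightness lowers the difference of Lyz1 or of the sum was not tested.

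Goblet cell genes went both ways, 3 higher and 3 lower of 25, where 0.879% and 2.97% of all genes were, with a median of 0.17. Spink4, a peptidase inhibitor in goblet granules, read 1465 and 4822 (1.71), and the goblet cell stress sensor gene Ern2 225.1 and 549.8 (1.23). Foxa3, a transcription factor of the lineage, was higher by 1.05 and the secreted mucin gene Muc2 by 0.88. Lower were Clca1, which processes mucus (183.7 and 45.3, -1.70), the membrane mucin gene Muc3 (992.3 and 369.8, -1.39), which enterocytes also carry, and the mucus protein gene Fcgbp (551.6 and 242.9, -1.13). Enteroendocrine cells, the hormone-secreting lineage, gave medians of -0.03 for 18 hormone genes and 0.13 for 16 transcription factor genes. Tac1, which encodes substance P, read 63.2 and 17.5 (-1.24), and the neurotensin gene Nts 26.3 and 72.9 (1.07). None of 18 tuft cell genes was past 2-fold (median -0.06), although Alox5ap and Rgs13 were lower by 0.99 and 0.92. Over 25 Notch pathway genes, which divide absorptive from secretory fate, the median was 0.07, and Nrarp, a feedback target of Notch, read 216.4 and 93.3 (-1.09; -0.07 on its other probe set).

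Genes for absorptive functions of the enterocyte were lower across several lists, on the array whose Actb and Gapdh controls dropped more toward the 5' end. For lipid absorption 12 of 31 measured genes were at least 2-fold lower and none higher, where 2.97% of all genes were lower, with a median of -0.74. Mttp, which loads lipid onto apolipoprotein B, read 802.3 and 135.4 (-2.43). Its partner Apob read 2124 and 616.5 (-1.76), with -0.50 on the other probe set. The list runs along the path of dietary fat: the cholesterol importer gene Npc1l1 (-1.44), the fatty acid binding protein gene Fabp1 (-1.73), the enzymes that rebuild triglyceride, Mogat2 (-1.76), Dgat1 (-1.34) and Dgat2 (-1.12), and the lipoprotein gene Apoa4 (-1.96) were all lower. Fabp2 (-0.75) and Apoa1 (-0.74) stayed under 2-fold.

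Sugar handling had a median of -1.08 over 17 measured genes, of which 10 were at least 2-fold lower, where 2.97% of all genes were. Uptake was represented by the sodium-glucose transporter gene Slc5a1 (1718 and 703.0, -1.27), the basolateral glucose exporter gene Slc2a2 (307.3 and 57.7, -2.13) and the fructose transporter gene Slc2a5 (105.2 and 39.0, -1.14). Digestion was represented by Mgam, which splits starch fragments (5308 and 2221, -1.25), and lactase Lct (68.3 and 24.0, -1.08). Fructose and glucose metabolism followed, with ketohexokinase Khk (-1.65), glucose-6-phosphatase G6pc (-1.60) and its transporter Slc37a4 (-1.13).

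On the cell surface, 5 of 20 brush border peptidases and phosphatases were at least 2-fold lower (median -0.50). Here and in the rest of this paragraph, the share of all genes was 2.97%, and of the brightest class 5.97%. Among the 5 were Mme (234.7 and 62.99, -1.67), the aminopeptidase gene Enpep (4216 and 1321, -1.66) and intestinal alkaline phosphatase Alpi (461.2 and 175.8, -1.31). The microvillus cytoskeleton differed less, with 3 of 23 past 2-fold and a median of -0.26: Anks4b, part of the tip-link complex between microvilli, was at -1.33 and the actin bundler Pls1 at -1.31, and villin differed by -0.28. Of 34 ion transport genes 5 were lower, led by the chloride-bicarbonate exchangers Slc26a3 (604.4 and 120.4, -2.19, with 3 probe sets past the filter from -2.29 to -2.19) and Slc26a6 (-1.55), whereas Cftr, the crypt chloride channel, read 527.1 and 497.7 (-0.08). Of 20 genes for metals 5 were lower: the iron exporter Slc40a1 (332.4 and 106.1, -1.51), the zinc exporter Slc30a1 (-1.29) and the metallothioneins Mt2 (8882 and 3127, -1.50), Mt4 (-1.33) and Mt1 (16341 and 6732, -1.28).

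Transcription factors of intestinal differentiation had a median of -0.34 over 25 genes. Ppara, the fatty acid sensor that induces lipid oxidation, read 149.1 and 44.0 (-1.46; 3 probe sets from -1.67 to -1.34), and Creb3l3, which activates apolipoprotein genes, 185.5 and 74.1 (-1.16). The master factors differed less: Hnf4a read 3299 and 2820 (-0.22) and Cdx2 712.4 and 638.3 (-0.15). Mucosal defence genes outside the Paneth cell included Reg3b, a lectin of enterocytes (10462 and 4582, -1.19), the chemokine gene Ccl25 (2495 and 851.4, -1.53, with 0.07 on its other probe set) and Lypd8 (1367 and 638.4, -1.08). Against these, Reg4, made by secretory cells, stood higher at 69.8 and 373.8.

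Detoxification included the list with the most genes past 2-fold of the 65, the esterases, conjugating enzymes and dehydrogenases. Its share at least 2-fold lower past the filter, 57.1%, was under that of sugar handling, 62.5%. Of 49 measured esterases, conjugating enzymes and alcohol and aldehyde dehydrogenases, 24 were at least 2-fold lower and none higher, where 2.97% and 0.879% of all genes were. The median was -0.94. Adh1, which oxidizes retinol and ethanol, read 635.2 and 115.7 (-2.31), Aldh1a1, which makes retinoic acid, 2077 and 474.5 (-2.09), and Ugt2b36 311.8 and 48.3 (-2.35). Of 33 cytochromes P450, 11 were at least 2-fold lower, where 2.97% of all genes were. A further 11 of the 33 did not pass the level filter. The median of the 33 was therefore only -0.31, and that of the members past the filter -0.99. Cyp2b10 read 850.9 and 132.2 (-2.55, with -2.63 and -2.25 on other probe sets), Cyp2c65 2244 and 372.7 (-2.54), Cyp2s1 520.1 and 95.3 (-2.27) and Cyp3a11 966.6 and 244.1 (-1.92). Such families hold close copies whose probe sets may read more than 1 member. Efflux pumps did not go one way: Abcg2, which exports drugs and porphyrins at the brush border, read 827.9 and 217.6 (-1.85), and Abcc4 79.4 and 226.6 (1.35). Of 26 Nrf2 targets and antioxidant genes only Nqo1 (-1.28) and Srxn1 (-1.15) were past 2-fold, and the median was -0.31.

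Promoter sequence was examined for 7 motifs, each searched on both strands from 250 bases before to 50 after the start of the gene in the RefSeq tables (GRCm38.p6), for the 10638 genes past the level filter that had one. CAAAGTCCA, the site of HNF4 factors, stood in 11 of 325 genes at least 2-fold lower (3.38%), in none of 90 higher and in 0.62% of all. CCTTTGA, the core of TCF and LEF sites, stood in 28 of the lower genes (8.62%), in 1 of the higher (1.11%) and in 4.45% of all. TCACNCCAC, the site of SREBP factors, stood in 11 lower genes (3.38%) and in 1.43% of all. The shares for CAATAAA (CDX), 3.38% of lower and 3.22% of all genes, and CACGTG (the E-box of Myc and others), 9.54% and 11.3%, were alike, and the HNF1 site was in 1 lower gene. TACGTG, the core of a strong site for hypoxia-inducible factors, stood in 12 lower genes (3.69%) and in 4.16% of all. Within lists, over members past the filter with a promoter, CCTTTGA stood in 2 of 16 Wnt targets (12.5%) and TCACNCCAC in 1 of 19 cholesterol synthesis genes (5.26%). Such a match is a description of letters and not of binding. The sequences shown are of lower genes with the HNF4 letters, chosen after the shares were seen from the detoxification and transport lists; the match is in capitals (reverse strand for Nat8), each line reads along the strand of the gene, and positions count from 0 at its first base.

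Cyp2c65, chr19:39060880-39060908, + strand, match from -116: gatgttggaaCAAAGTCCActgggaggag
Cyp2c68, chr19:39741160-39741188, - strand, match from -77: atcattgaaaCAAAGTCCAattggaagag
Cyp3a11, chr5:145879945-145879973, - strand, match from -109: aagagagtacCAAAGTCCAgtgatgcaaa
Nat8, chr6:85832259-85832287, - strand, match from 2: caagctcaggTGGACTTTGgctccctgcc
Sult1b1, chr5:87536179-87536207, - strand, match from 25: gtgagcaggcCAAAGTCCAttcctggtgg
Slc3a1, chr17:85028298-85028326, + strand, match from -39: cttggctggaCAAAGTCCAgccatgatta

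Alpi alone met the rule for a whole promoter (an enterocyte gene at least 2-fold lower that holds the HNF4 letters), and its 300 bases at chr1:87101557-87101856 on the - strand carry the match from -19.

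Alpi: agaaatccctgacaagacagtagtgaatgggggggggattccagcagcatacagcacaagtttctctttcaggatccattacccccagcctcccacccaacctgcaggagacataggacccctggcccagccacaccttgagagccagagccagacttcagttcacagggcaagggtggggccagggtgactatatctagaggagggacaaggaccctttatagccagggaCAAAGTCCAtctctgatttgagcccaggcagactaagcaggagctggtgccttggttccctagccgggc

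Of these genes, Cyp2c68 read 425.2 and 86.1 (-2.11), Nat8, which acetylates cysteine conjugates, 445.8 and 115.1 (-1.82), Sult1b1 617.3 and 198.7 (-1.56), and the cystine carrier gene Slc3a1 519.2 and 175.4 (-1.48).

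Of 38 genes of fatty acid oxidation and peroxisomes, all bright enough for the filter, 9 were at least 2-fold lower, where 2.97% of all genes were. Of the 38, 35 stood below 0 and the median was -0.72, against -0.07 at day 4. The carnitine step was represented by Cpt1a, which commits fatty acids to the mitochondrion (274.2 and 110.4, -1.20), and the carrier Slc25a20 (563.7 and 251.5, -1.12). Slc25a20 and Slc25a24 were the 2 of 29 mitochondrial carriers past 2-fold, and the median of those 29 was -0.05. Within the mitochondrion both chains of the trifunctional protein, Hadha (192.0 and 77.8, -1.15) and Hadhb (955.8 and 455.9, -1.04), were lower, and in the peroxisome Acaa1b (231.1 and 49.1, -1.93) and Ehhadh (217.1 and 73.96, -1.37).

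Cholesterol synthesis had a median of -0.85 over 23 genes, all past the filter, and 21 stood below 0. At least 2-fold lower were 10, where 2.97% of all genes were. The 5 genes with the largest differences act after squalene: Sqle, which oxidizes squalene, read 773.6 and 293.2 (-1.35), Cyp51 684.5 and 192.5 (-1.75), Msmo1 939.6 and 321.4 (-1.50), Ebp 439.0 and 167.9 (-1.31), and Sc5d 360.7 and 108.5 (-1.60). Some of these depend on the probe set. The 3 of Cyp51 ran from -1.75 to -0.61 and the 3 of Sc5d from -1.60 to -0.13, and the other probe set of Msmo1 gave -0.31. Of the steps up to squalene, Fdps (722.0 and 307.3, -1.19) and Idi1 (1171 and 524.2, -1.14) were past 2-fold, and Hmgcs1 (-0.73), Fdft1 (-0.68) and Mvk (-0.12) were not. Srebf2, the factor that switches the pathway on, read 207.3 and 113.0 (-0.79). In fatty acid synthesis 4 of 16 genes were lower, where 2.97% of all genes were. Scd1, the desaturase that makes oleate, read 495.9 and 127.9 (-1.83). At day 4 Scd1 differed by -1.03, and the other called genes, Scd2, Fads2 and Elovl6 (-1.01 to -1.07 at day 6), by 0.02, 0.03 and 0.24.

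Glycolysis, from glucose entry to lactate, had a median of -0.65 over 22 measured genes. At least 2-fold lower were 4 and none was higher, where 2.97% and 0.879% of all genes were. Pfkp, a phosphofructokinase, read 503.6 and 147.9 (-1.66), the aldolase gene Aldoc 337.8 and 129.7 (-1.28) and lactate dehydrogenase Ldha 2550.2 and 1159 (-1.13). Pgk1 (-0.90) and the glucose transporter gene Slc2a1 (-0.72) were lower by less than 2-fold. Gapdh, read only by control probe sets, was lower by 1.02 at its 3' end. Hypoxia-inducible factors (HIF) induce their targets when oxygen is low. Of 26 targets measured, 7 were at least 2-fold lower, where 2.97% of all genes were, and the median was -0.58. The mitophagy receptor gene Bnip3 read 314.6 and 65.3 (-2.02) and Ndrg1 2102 and 527.6 (-1.96, with 5 probe sets from -2.10 to -1.13). The oxygen sensor gene Egln3 read 366.2 and 82.1 (-1.96, with -0.72 on its other probe set) and Ankrd37 129.7 and 25.6 (-1.81). Vegfa, the angiogenic factor that HIF induces, went the other way, with 66.1 and 97.3 (0.46). TACGTG stood in 4 of the 20 past the filter that had a promoter in the tables (20%), against the 4.16% of all genes given above. The list was chosen as known HIF targets, so this share does not bear on the day 6 difference. Among all genes at least 2-fold lower the share was 3.69%. The 4 of the list are shown with the match in capitals, written on the reverse strand for Car9 and P4ha1.

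Ankrd37, chr8:46000077-46000100, - strand, match from -242: cccagcagTACGTGcctagctcgg
Car9, chr4:43506998-43507023, + strand, match from -18: atttccgatgCACGTAcagcccgtcc
Egln1, chr8:124949308-124949333, - strand, match from -69: ggccgtggtgTACGTGcagcgcgcgc
P4ha1, chr10:59323270-59323295, + strand, match from -16: tgacagagcgCACGTAgcgagggctg

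Car9, the surface carbonic anhydrase of hypoxic cells, read 319.2 and 146.3 (-1.05), and Egln1 264.2 and 128.2 (-0.96).

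The respiratory chain differed by small amounts over many genes. None of 65 measured subunits was past 2-fold, the median was -0.46, and 59 of the 64 past the filter stood below 0; the median at day 4 was -0.07. Ndufa9 of complex I (899.4 and 475.1, -0.90) and Sdhb of complex II (1338 and 721.9, -0.88) differed most. Ribosomal proteins, by contrast, had a median of -0.08 over 45, with none past 2-fold and Rps6 at 379.5 and 388.9.

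DNA replication had a median of 0.35 over 42 genes, none past 2-fold. The largest were the clamp loader Rfc1 (69.98 and 154.9, 0.99) and the polymerase subunit Pold1 (477.9 and 938.8, 0.95). Other probe sets gave less, 0.58 and 0.43 for Rfc1 and 0.54 for Pold1. Mitosis had a median of -0.02 over 46, with Mki67, the proliferation marker, at 656.5 and 671.2 and the kinase Cdk1 at 493.4 and 540.9. Ribosome biogenesis had a median of 0.13 over 34, with only Rrp1b past 2-fold (1.01, with 0.42 and 0.40 on its other probe sets). Purine and pyrimidine synthesis had 0.05 over 22, where the day 4 pair gave 0.43. Proteasome subunits had a median of -0.18 over 35 and chaperones -0.17 over 28. Of 11 polyamine genes (median -0.03) Arg2 was past 2-fold, Azin1, which keeps ornithine decarboxylase from degradation, was at -0.86, and Odc1, that decarboxylase and a Myc target, read 760.2 and 976.6 (0.35).

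Amino acid handling held single large differences in lists whose medians were near 0. Of 31 transporters 5 were lower and 1 higher (median -0.02), where 2.97% and 0.879% of all genes were. Among the 5, the proline carrier gene Slc6a20a read 1149 and 263.4 (-2.06) and Slc7a9, the partner of Slc3a1, 734.0 and 333.7 (-1.10). The neutral amino acid transporter gene Slc6a19 read 215.9 and 92.5 (-1.10), and all of these act at the brush border. Slc1a4 was higher (190.0 and 406.5, 1.04). In serine and one-carbon metabolism Cth, which makes cysteine, read 1262 and 343.4 (-1.83), while Phgdh, the first step of serine synthesis, read 284.0 and 503.8 (0.79).

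Stress, death and signalling lists had medians near that of all genes with a few members past 2-fold. Of 23 p53 targets (median 0.21) Plk2 was past 2-fold (58.9 and 158.2, 1.22, with 0.15 on its other probe set), and Cdkn1a, the cell cycle inhibitor p21, read 501.5 and 337.5 (-0.55). In the Bcl2 family, Bcl2 itself, which blocks apoptosis, read 84.4 and 192.0 (1.05; 5 probe sets from 0.38 to 1.05), and Bcl2l15, enriched in gut epithelium, 1044 and 129.4. Fos and Jun, partners in AP-1, stood on opposite sides: 438.7 and 140.0 for Fos (-1.54), 197.8 and 382.1 for Jun (0.90). Of 41 interferon response genes only Ifitm3 was past 2-fold (158.1 and 468.6, 1.48). Hspa5, the chaperone of the endoplasmic reticulum, read 2772 and 1342 (-1.04). Of 39 nuclear receptors and oestrogen targets (median -0.02) 2 were past 2-fold, both lower, where 2.97% of all genes were. These were Ppara and the glucocorticoid receptor gene Nr3c1 (393.8 and 182.2, -1.05). 4OHT is a ligand of oestrogen receptors, and its own effect through them was not tested.

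Families of structural genes had members on both sides. Among 6 keratins Krt20 (-1.26) and Krt19 (3639 and 2052, -0.82) were lower, and Krt23 (90.6 and 233.4, 1.23), Krt7 and Krt18 (3229 and 5740.1, 0.83) higher, with Krt8 at 9544 and 8404. Among 28 claudins and tight junction genes Cldn15, which forms sodium pores in the gut, read 984.8 and 317.1 (-1.59), opposite to Cldn4. Tuba1a (175.0 and 543.3, 1.55) and Tubb2b (75.4 and 212.3, 1.32) were the 2 of 12 tubulin genes past 2-fold, where 0.879% of all genes were higher.

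**Figure D4:**
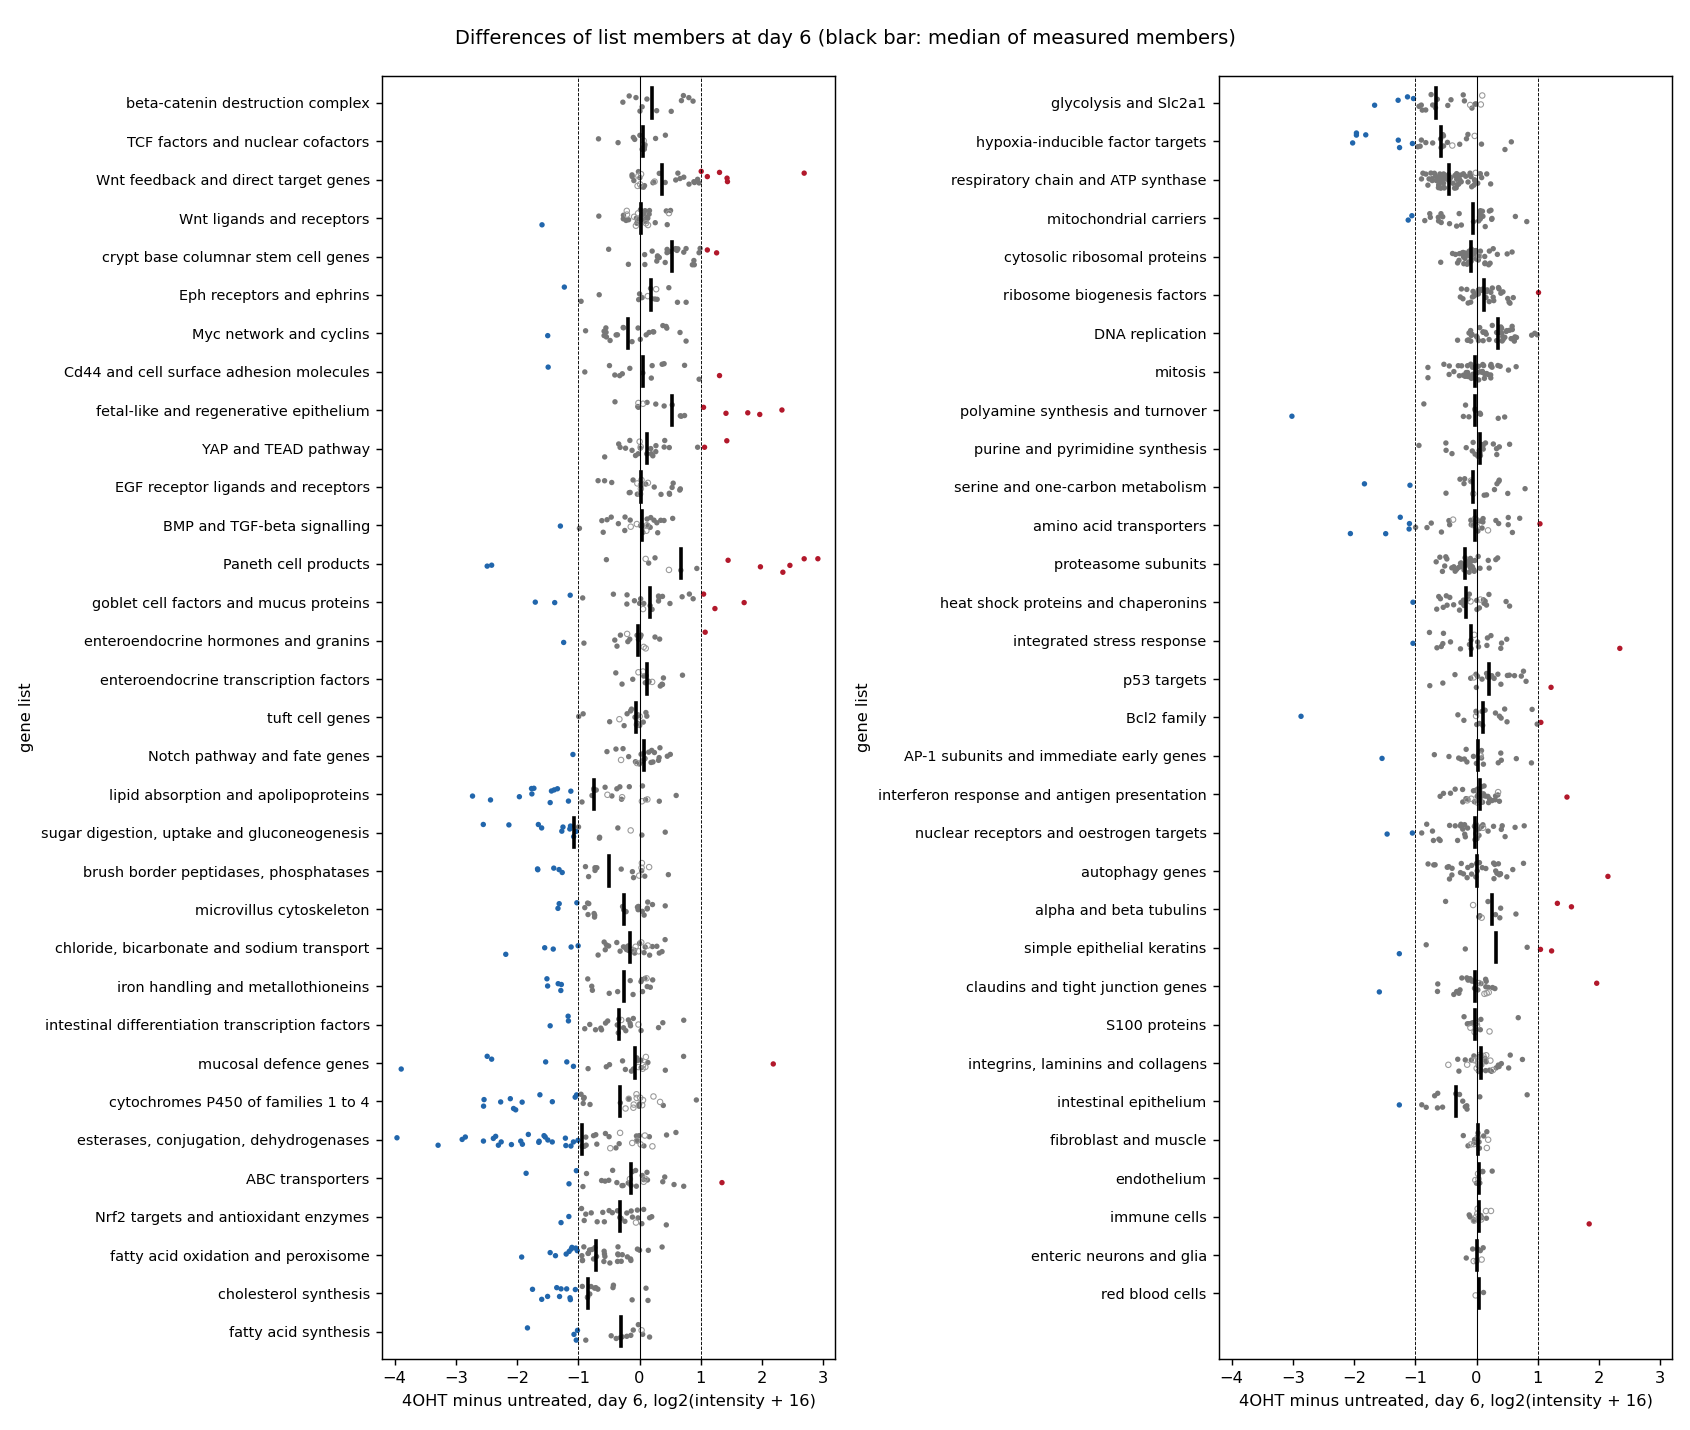
Difference (4OHT minus untreated, day 6, log2(intensity + 16)) of each measured member of 65 gene lists; filled points passed the level filter (red at least 2-fold higher, blue at least 2-fold lower), open points did not, black bars are medians of all measured members and dashed lines mark 2-fold. The medians of lipid absorption, esterases and conjugating enzymes, fatty acid oxidation, cholesterol synthesis and glycolysis lie left of 0, with sugar handling at -1.08, and Paneth cell products lie farthest right at 0.67.

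The day 4 arrays, which share no array with this pair, are given beside it for the genes picked at day 6. Of the 116 genes higher at day 6, 98 were above 0 at day 4 (84.5%, where 56.7% of all genes were), 27 were past 2-fold and none was past 2-fold the other way, with a median of 0.55 at day 4 against 1.22 at day 6. Of the 392 lower genes, 334 were below 0 at day 4 (85.2%, where 43.2% of all genes were), 105 were past 2-fold and none the other way, with medians of -0.57 and -1.28. The 4OHT array of day 4 also dropped more toward the 5' end, the 3' minus 5' difference being 2.96 untreated and 3.91 with 4OHT for Actb and 1.42 and 2.29 for Gapdh. Its spiked controls were dimmer, by -0.35 on average for hybridization and -0.46 for poly-A controls, opposite to day 6. The part of either in the shared signs was not tested. At day 4 itself 132 genes were higher (1.0%) and 161 lower (1.22%).

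Where a gene had several probe sets past the filter, the brightest was set against the next brightest. Of 73 higher genes with another probe set, 67 had the same sign on it but only 10 were past 2-fold there, and its median was 0.42. Of 146 lower genes, 137 had the same sign, 68 were past 2-fold and the median was -0.92. Over all 5798 genes with at least 2 probe sets the median absolute gap between the pair was 0.23, and in 1 gene of 10 it exceeded 0.61. Probe sets of the _x_at and _s_at kinds, which can bind several transcripts, read 25.9% of the higher genes, 8.16% of the lower and 11.5% of all. Averaging a gene's probe sets left 43 genes higher and 294 lower.

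**Figure D5:**
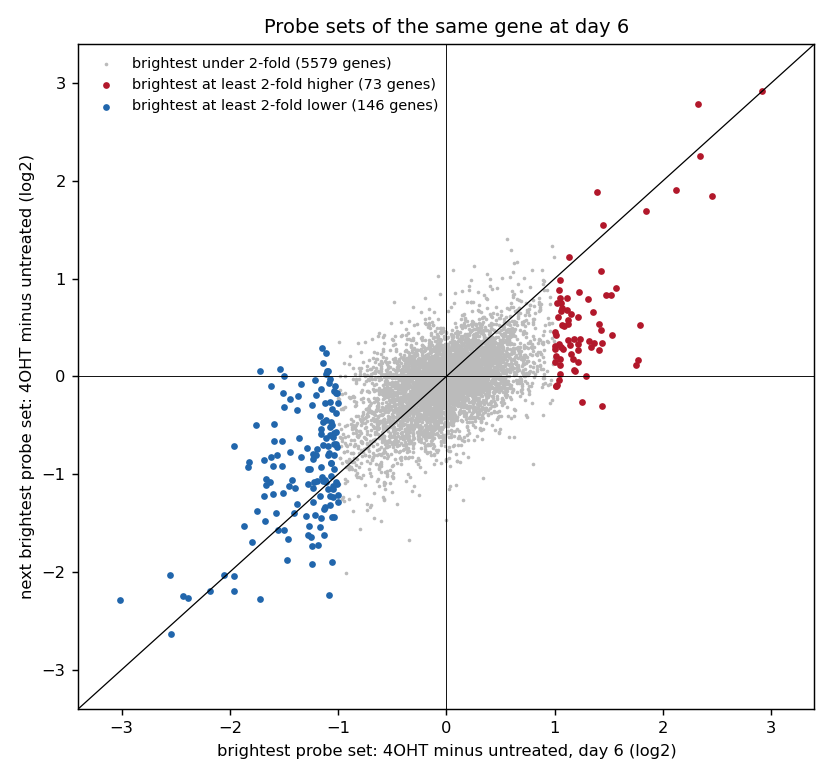
Difference (4OHT minus untreated, day 6, log2(intensity + 16)) on the next brightest probe set (y axis) against the brightest (x axis) of 5798 genes, with the line of equality. Of the genes at least 2-fold lower on the brightest (blue, 146) 68 were also past 2-fold on the next, and of those higher (red, 73) 10 were.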

How the data were processed

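The authors deposited intensities on a linear scale, 1 per probe set and array; their background correction, normalization and summary method are not given in the sources used here. No detection calls were used. Probe sets naming several genes (932) or not in the platform annotation (9211), and the 64 controls, did not enter the gene table. Of the probe sets of 1 gene, 34754 matched a RefSeq record and no symbol changed. The brightest probe set was that with the highest mean log2(intensity + 16) over the 4 arrays, and all values were taken as deposited with a pseudocount of 16. The 65 lists held 1657 genes, of which 1504 were measured.

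The members, lists and rules were chosen with earlier results of these data known. Named genes were Apc, the 15 with the largest difference in each direction (predicted and clone-named genes passed over, which left out 2610528A11Rik), and in each list up to 5 members past 2-fold, or else the 2 with the largest differences past the filter. Any other gene named was chosen after its values were seen. Alternatives covered the pseudocount, level filter, probe set choice, scaling and threshold. The counting was tested on simulated data. Python 3.11.15, pandas 2.3.3, numpy 2.4.6 and matplotlib 3.10.9 were used.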

Additional observations from a re-analysis of the deposited data

Results flagged for a closer look

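Of the genes named by rule, 15 were at least 2-fold different at day 6 and had the opposite sign at day 4. In 12 of them, such as Cyp2c68 and Ppara, the day 4 difference was under 0.5 (0.02 to 0.38 in size). Some of the 12 had untreated day 4 values under the level filter, such as Cyp2c68 (17.0) and Abca1 (7.97). A large difference downward could not be read there. The other 3, at or above 0.5, follow. Slc1a1, a glutamate transporter gene, differed by -1.25 at day 6 (269.8 untreated, 104.5 with 4OHT) and by 0.51 at day 4. Its 3 probe sets ran from -1.92 to -1.17 at day 6. Hspa5, the endoplasmic reticulum chaperone gene, was at -1.04 at day 6 but 0.50 at day 4, with 3 probe sets from -1.04 to -0.20 at day 6. Cldn15, the sodium pore claudin gene, read -1.59 at day 6, against 0.55 at day 4, on its only probe set. With 1 array in each group the difference between the days was not tested.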

How the results depend on the processing

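The count of genes at least 2-fold higher, 116 as reported, was 195 with a pseudocount of 1 and 50 with a pseudocount of 64. It was 43 when a gene's probe sets were averaged. It was 13 when the hybridization control difference of 0.83 was subtracted from every gene. At thresholds of 1.5-fold and 3-fold it was 625 and 20. The count of lower genes, 392 as reported, was 225 with a pseudocount of 64 and 3974 after the same subtraction. At the thresholds of 1.5-fold and 3-fold it was 1155 and 106. Under the other settings run (no filter or another filter, another rule for the probe set, median centring, quantile normalization, counting probe sets) both counts stayed within 1.5 times those reported. Of 65 list medians 53 moved by less than the 0.23 gap between probe sets of a gene in every setting, and of 186 named genes 67 did. Pseudocount 64 moved 85 named genes and averaging probe sets 58. The median of Paneth cell products was 1.43 with a pseudocount of 1 and 0.25 with 64, and that of Wnt targets 0.63 over members past the level filter, an alternative added after the data were seen. Gsk3b and the list medians nearest 0 turned sign under single settings. No paired analysis was possible because each group holds 1 array and the labels give no replicate numbers. Depth is not defined for intensities, and dim genes near the array floor can show only small differences on this scale.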

Other observations

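Of the genes at least 2-fold different, 35 of the 116 higher and 146 of the 392 lower lay in any of the lists; those below were named after their values were seen. Among the higher genes outside the lists were others of secretory cells: Rnase1, a secreted ribonuclease (129.2 untreated and 476.7 with 4OHT, 1.76), and Bhlha15, a transcription factor of cells that secrete by exocytosis (83.8 and 320.9, 1.76). Long non-coding RNA genes were present too, with Airn at 192.4 and 602.0 (1.57), Pvt1, the neighbour of Myc, at 49.5 and 149.2 (1.33), and Kcnq1ot1 at 245.2 and 535.5 (1.08). For some other higher genes another probe set was near 0 and day 4 had the opposite sign: Srrm1, a splicing protein gene, read 1.53 on its brightest probe set, down to -0.16 on another and -0.25 at day 4, and Pnisr 1.04, -0.06 and -0.51. Among the non-coding RNA genes, the 4 probe sets of Airn past the level filter reached from -0.12 to 1.57. Edn1 and Edn2, which encode endothelins, stood on opposite sides: Edn1 read 150.2 and 353.8 (1.15), and Edn2 188.3 and 44.6 (-1.75).

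Among the lower genes outside the lists, transport of bile acids and vitamins and the sulfur donor pathway were represented. Slc51a, a subunit of the basolateral bile acid exporter, read 453.9 and 82.8 (-2.25), and Rbp7, a retinol carrier, 128.9 and 13.9 (-2.28). Papss2 (149.3 and 40.8, -1.54) and Papss1 (718.2 and 288.3, -1.27) make the sulfate donor that sulfotransferases use, and Bpnt1 (668.3 and 214.5, -1.57) clears its product. The glycosyltransferase genes St3gal4 (1870 and 340.9, -2.40) and Mgat4c (326.9 and 50.8, -2.36), and Gfpt1, the entry step of hexosamine synthesis (2717 and 757.7, -1.82), were lower, as were the vesicle coat genes Sec23a (808.4 and 280.1, -1.48) and Sec24d (184.5 and 67.0, -1.27). The monoamine oxidase genes Maob (163.2 and 21.9, -2.24) and Maoa (1983 and 831.5, -1.24) differed in the same direction. How often such groups would arise among genes picked by their values was not tested.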
